A study of Arabidopsis thaliana with 6 samples.

Results

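The 9 genes described here encode subunits of TOM and TIM, the protein translocases of the outer and inner mitochondrial membranes of Arabidopsis thaliana. They were taken by locus from a table of 24193 genes: the receptors TOM20-2 (AT1G27390), TOM20-3 (AT3G27080) and TOM20-4 (AT5G40930), the channel TOM40 (AT3G20000), and the inner membrane subunits TIM17-1 (AT1G20350), TIM17-2 (AT2G37410), TIM23-1 (AT1G17530), TIM23-2 (AT1G72750) and TIM50 (AT1G55900). All 9 were found in the table. RNA was measured in 3 libraries of lon1-1, in which the mitochondrial ATP-dependent protease LON1 is mutated, and in 3 libraries of wt, the Col-0 wild type. All seedlings were 6 days old, had been grown upright on plates in darkness and were snap frozen. Whole seedlings are the labelled tissue, with no organ separated. The text of the study describes the replicates of each genotype as independent. It says nothing of the mutation itself or of the line's background, and genotype was taken from the sample titles, since a separate genotype entry gives Col-0 throughout, also for lon1-1.

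Most mitochondrial proteins are made in the cytosol and are threaded through the outer membrane by TOM. In plants TOM20 receptors on the cytosolic face bind the targeting presequence, and TOM40 forms the pore. TIM50 receives the precursor in the intermembrane space and hands it to the channel of the inner membrane, built from TIM23 and TIM17, after which a motor of mitochondrial HSP70 draws it into the matrix. TIM17 and TIM23 belong to a family of small membrane proteins known as PRAT. Plant genomes keep several copies of many of these subunits, and the copies need not be used alike.

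The genes lie on 4 chromosomes, and the windows before their annotated starts differ in short motifs. Positions and sequence are RefSeq's for TAIR10.1, whereas the submitters' processing notes name TAIR10 and the table holds no positions. Each window covers the 250 bases before the annotated gene start, is written in the direction of the gene, and was searched on both strands for TGGGCC and TGGGCT (together site II, an element common before plant genes for mitochondrial and ribosomal proteins), AAACCCT (the core of the telo box), CACGTG (the G-box) and the mitochondrial dysfunction motif. Any base is allowed in the middle of the last, which is the element through which NAC transcription factors act in signalling from the mitochondrion to the nucleus. The 4 windows printed hold the members' only mitochondrial dysfunction motif match or at least 2 site II matches. Capitals mark the motif letters, and AGCCCA and AGGGTTT are TGGGCT and AAACCCT read on the other strand.
TIM50 (TAIR10.1, chr1:20902803-20903052, plus strand): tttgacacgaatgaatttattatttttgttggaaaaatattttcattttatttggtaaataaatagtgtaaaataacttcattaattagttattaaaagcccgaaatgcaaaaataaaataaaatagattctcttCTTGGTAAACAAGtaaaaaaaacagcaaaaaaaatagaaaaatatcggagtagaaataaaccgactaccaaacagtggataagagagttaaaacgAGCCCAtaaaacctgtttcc
TOM20-2 (TAIR10.1, chr1:9515051-9515300, minus strand): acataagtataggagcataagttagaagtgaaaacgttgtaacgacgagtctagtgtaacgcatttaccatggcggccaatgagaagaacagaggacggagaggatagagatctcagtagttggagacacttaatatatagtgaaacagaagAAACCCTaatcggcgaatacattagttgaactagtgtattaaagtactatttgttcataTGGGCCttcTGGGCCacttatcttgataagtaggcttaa
TOM20-4 (TAIR10.1, chr5:16404207-16404456, plus strand): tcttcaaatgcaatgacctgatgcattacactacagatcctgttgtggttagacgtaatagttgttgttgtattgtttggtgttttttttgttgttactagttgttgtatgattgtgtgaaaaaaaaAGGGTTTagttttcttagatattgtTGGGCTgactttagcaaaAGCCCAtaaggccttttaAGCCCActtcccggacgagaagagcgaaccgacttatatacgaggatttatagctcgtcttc
TIM17-1 (TAIR10.1, chr1:7043378-7043627, plus strand): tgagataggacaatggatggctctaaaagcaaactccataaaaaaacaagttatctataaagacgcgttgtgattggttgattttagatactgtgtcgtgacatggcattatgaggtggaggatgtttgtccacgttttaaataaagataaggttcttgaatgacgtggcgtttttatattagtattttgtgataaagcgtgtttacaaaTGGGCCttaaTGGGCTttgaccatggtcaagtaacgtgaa

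The TIM50 window held the mitochondrial dysfunction motif 115 to 103 bases before the start and 1 site II match 20 to 15 bases before it. The motif was present in 1.2% of the 27443 windows of the same length before protein-coding genes. TOM20-2 had TGGGCC at 39 to 34 and at 30 to 25 bases before its start, with AAACCCT at 98 to 92. TOM20-4 had TGGGCT 3 times, at 98 to 93, 80 to 75 and 62 to 57 bases, with AAACCCT at 123 to 117. TIM17-1 had TGGGCC at 40 to 35 and TGGGCT at 30 to 25 bases. The window of TIM17-2 held 1 TGGGCT far from the start, at 238 to 233 bases. Site II was thus present before 5 of the 9 genes, against 19.2% of all windows, and AAACCCT before 2 of the 9, against 7.33%. None of the motifs was found before TOM20-3, TOM40, TIM23-1 or TIM23-2, and CACGTG, present in 6.49% of all windows, was found before none of the 9. A match is a run of letters and was not tied to binding here.

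**Figure D1:**
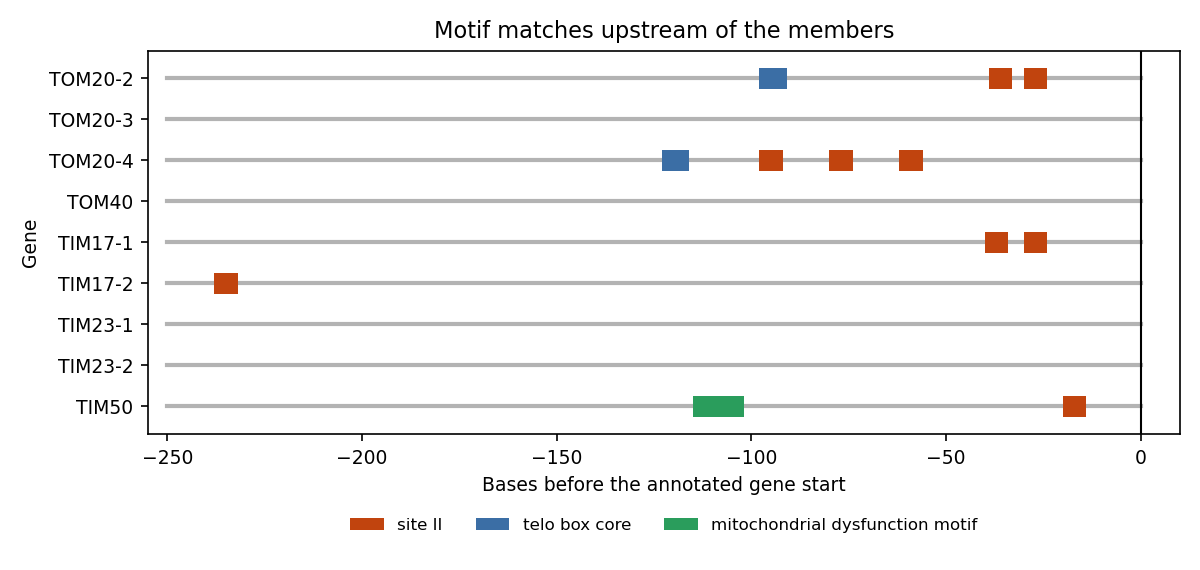
Positions of motif matches in the 250 bases before the annotated start of each of the 9 genes, with distance from the start in bases on the x axis and genes from top to bottom. Site II matches lie within 100 bases of the start in TOM20-2, TOM20-4, TIM17-1 and TIM50 and near the far end in TIM17-2, and 4 genes have no match.

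The table gives FPKM, a fragment count scaled to transcript length and to library size, so levels can be set side by side between genes. Depth, estimated from the steps between low values, came to 34250000 to 35250000 fragments in the lon1-1 libraries and 32250000 to 33250000 in the wt libraries. LON1 was listed at 2.61 to 2.79 FPKM in lon1-1 and 4.69 to 4.7 FPKM in wt, lower in lon1-1 by a log2 fold change of -0.63 (limma adjusted p = 3.58e-06). Most tested genes differed between lon1-1 and wt. Of 18308 genes that reached 1 FPKM in 3 or more libraries, 77% passed a limma adjusted p of 0.05. Of the tested genes, 44.7% were higher in lon1-1 and 32.3% lower. The median log2 fold change was 0.08 over all of them, and its median absolute value was 0.44 among those that passed. Fold changes are of log2(FPKM + 1), lon1-1 minus wt, which understates the change of low genes. Markers of seedling parts differed as well, and their part in the results below was not tested. All 6 root hair markers (RHD6, RSL4, EXPA7, EXPA18, PRP3 and COBL9) were higher in lon1-1, with a summed level of 97.0 to 103 FPKM in lon1-1 and 47.6 to 50.0 FPKM in wt. All 3 etiolated shoot markers (PORA, PORB and IAA29) were lower, at 240 to 249 FPKM summed in lon1-1 and 488 to 504 FPKM in wt. Of 4 seed markers, CRA1 was higher and SESA1, OLEO1 and OLEO2 were lower. The sum of all 4 was 64.7 to 69.1 FPKM in lon1-1 and 36.1 to 38.7 FPKM in wt. Most of it was CRA1, with means of 61.0 FPKM in lon1-1 and 25.2 FPKM in wt. No marker in these lists was at 0 in any library.

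Transcripts of the TOM20 receptors, of TOM40, of TIM23-2 and of TIM50 were more abundant in lon1-1 seedlings, at 1.49 to 1.96 times the wt mean. TIM17-2, the most abundant of the 9, was 0.915 times its wt mean, and TIM23-1 did not pass the test. TIM17-1 was hardly detected in either genotype. Of the 8 genes that passed the filter on low values, 6 were called higher, 1 was called lower and 1 was not called, and their median log2 fold change was 0.61. Over all tested genes, 44.7% were called higher and 32.3% lower. All lon1-1 libraries lay above all wt libraries in 6 of the 8 and below them in 0, against 45.7% and 33.4% of all tested genes. In whole seedlings, a change in the number of cells that express a gene and a change in RNA per cell cannot be told apart.

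**Figure D2:**
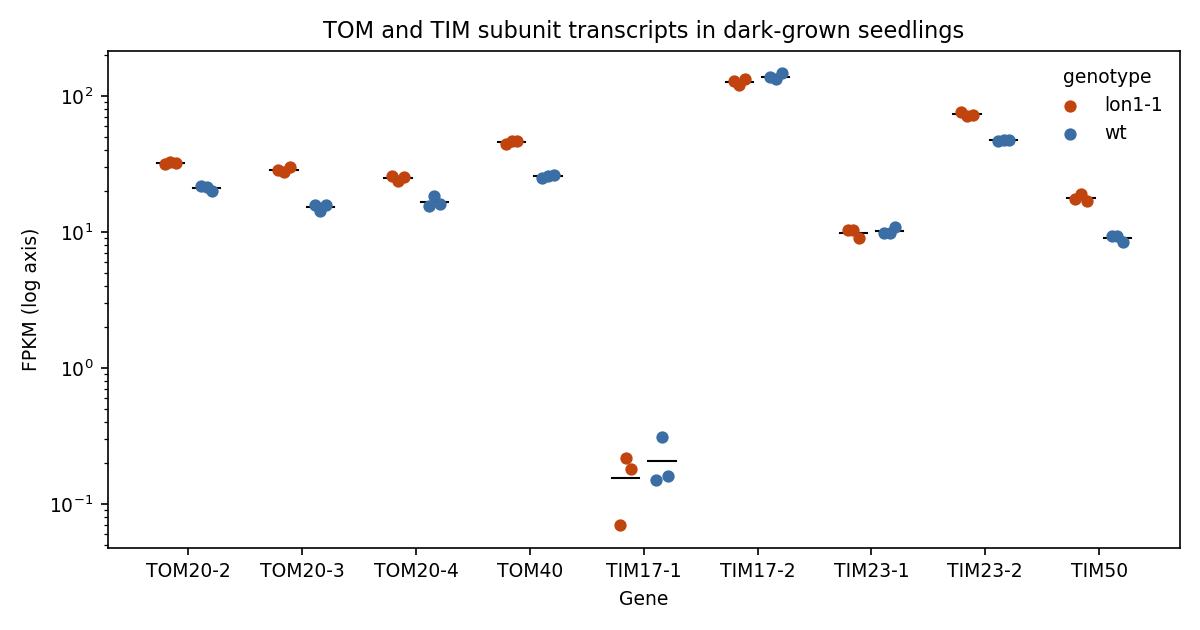
FPKM of the 9 genes in each library on a log axis, with lon1-1 to the left of wt for each gene, 1 point per library (n = 3 each) and a bar at the mean. The lon1-1 points lie above the wt points for the 3 TOM20 genes, TOM40, TIM23-2 and TIM50 and overlap them for TIM17-1, TIM17-2 and TIM23-1.

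Among the receptors, TOM20-3 had 28.37, 27.77 and 30.34 FPKM in lon1-1 A, B and C, against 15.86, 14.26 and 15.89 FPKM in wt A, B and C. Every lon1-1 library was above every wt library. The means were 28.8 ± 1.34 FPKM in lon1-1 and 15.3 ± 0.933 FPKM in wt (SD, n = 3 each), a ratio of 1.88 and a log2 fold change of 0.87 (SE 0.052, limma adjusted p = 2.11e-07). Of all tested genes, 94.1% had a smaller log2 fold change.

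TOM20-2, the receptor with the highest level in both genotypes, had 31.85, 32.8 and 32.37 FPKM in lon1-1, against 22.0, 21.47 and 20.14 FPKM in wt. The lon1-1 libraries were nearly equal and all lay above wt. Its ratio of means was 1.53 and its log2 fold change 0.59 (SE 0.04, limma adjusted p = 5.64e-07).

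TOM20-4 had 25.66, 23.61 and 25.36 FPKM in lon1-1, against 15.66, 18.38 and 16.04 FPKM in wt. Library B was the lowest of lon1-1 and the highest of wt, yet the groups did not overlap. The ratio of means was 1.49 and the log2 fold change 0.55 (SE 0.06, limma adjusted p = 1.68e-05). The 3 receptors are distinct in sequence: their coding sequences share 56.8% to 66.3% of aligned bases, with no identical run over 18 bases, so reads of 1 copy can mostly be told from those of another.

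The 3 receptor genes together summed to 85.9, 84.2 and 88.1 FPKM in lon1-1, against 53.5, 54.1 and 52.1 FPKM in wt. TOM20-3 made up 33.0%, 33.0% and 34.4% of that sum in lon1-1, against 29.6%, 26.4% and 30.5% in wt. Its share was higher in all lon1-1 libraries, by 4.66 percentage points on average. A two-sided exact permutation test gave p = 0.1, the smallest that 3 libraries against 3 allow, and 0.25 after adjustment over the 5 shares tested. The shares of TOM20-2 (37.6% in lon1-1, 39.8% in wt) and TOM20-4 (28.9% in lon1-1, 31.3% in wt) overlapped between genotypes, each with an exact permutation p of 0.2. In wt the ranges of TOM20-4 and TOM20-3 overlapped, while in lon1-1 TOM20-3 stood above TOM20-4 in every library.

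TOM40, the pore of the outer membrane, had 44.62, 46.44 and 46.69 FPKM in lon1-1, against 24.78, 25.89 and 26.4 FPKM in wt. The replicates lay within a few FPKM of each other and the groups were far apart. Means of 45.9 ± 1.13 FPKM in lon1-1 and 25.7 ± 0.828 FPKM in wt (SD, n = 3 each) gave a ratio of 1.79 and a log2 fold change of 0.81 (SE 0.037, limma adjusted p = 3.14e-08). That was above the log2 fold change of 93.1% of tested genes. Another TOM40-type gene, AT1G50400, was expressed far lower, at 2.07 FPKM in lon1-1 and 0.657 FPKM in wt, and was higher in lon1-1 by a log2 fold change of 0.89 (limma adjusted p = 1.53e-06). The coding sequences of the pair are 75.0% identical, with no shared run over 18 bases.

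At the inner membrane, TIM50, the receptor that takes over precursors from TOM, had 17.47, 18.95 and 16.89 FPKM in lon1-1, against 9.33, 9.37 and 8.45 FPKM in wt. All lon1-1 libraries were far above all wt libraries. Its ratio of 1.96 and log2 fold change of 0.9 (SE 0.056, limma adjusted p = 3.04e-07) were the largest of the 8 genes tested, above 94.7% of tested genes. The TIM50 row pools 4 transcripts, 2 of them models added by the authors whose protein matches also name a zinc ion binding protein. A nearby gene, AT1G55915, stood at 1.93, 1.65 and 1.58 FPKM in lon1-1 and 1.46, 1.34 and 1.38 FPKM in wt, well under the level of TIM50. Whether the added models drew reads of AT1G55915 into the TIM50 row was not tested, and its own level cannot show it. Other neighbouring loci differed in direction. AT1G55890 had 13.03, 12.49 and 13.75 FPKM in lon1-1 and 9.66, 10.23 and 9.14 FPKM in wt (log2 fold change 0.4, limma adjusted p = 7.63e-05). ZIP11 (AT1G55910) had 1.93, 2.09 and 1.55 FPKM in lon1-1 and 2.74, 2.33 and 2.91 FPKM in wt (-0.36, limma adjusted p = 0.00498).

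TIM23-2, the main copy of the channel subunit, had 76.87, 71.65 and 72.7 FPKM in lon1-1, against 46.92, 47.4 and 47.37 FPKM in wt. The wt libraries were nearly identical and all lay below lon1-1. The means, 73.7 ± 2.76 FPKM in lon1-1 and 47.2 ± 0.269 FPKM in wt (SD, n = 3 each), gave a ratio of 1.56 and a log2 fold change of 0.63 (SE 0.034, limma adjusted p = 1.12e-07). The row pools 2 transcripts, 1 added by the authors, and the annotation places another gene, AT1G72755, on the opposite strand of the same stretch. AT1G72755 has no level listed in any library. TIM23-1 also overlaps a gene on the opposite strand, AT1G17520, whose level was not examined. The libraries kept strand, but whether the counting used it is not given in the sources used here, so reads from such pairs may not have been told apart.

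TIM23-1 showed no such difference. It had 10.35, 10.31 and 9.01 FPKM in lon1-1, against 9.77, 9.88 and 10.97 FPKM in wt, and the groups overlapped throughout. Its log2 fold change was -0.04, with a 95% interval of -0.19 to 0.1 (limma adjusted p = 0.567), and it turned to 0.02 without lon1-1 C and to 0.01 without wt C. The pair's coding sequences are 79.0% identical with no shared run over 17 bases. TIM23-2 accordingly held 88.1%, 87.4% and 89.0% of the pair's FPKM in lon1-1, against 82.8%, 82.8% and 81.2% in wt. The share was 5.94 percentage points higher in lon1-1 with no overlap (exact permutation p = 0.1, the smallest possible, adjusted 0.25). Another copy, TIM23-3 (AT3G04800), was listed at 0.6, 0.67 and 0.66 FPKM in lon1-1, against 0.08, 0.0 and 0.16 FPKM in wt, and fell under the filter.

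TIM17-2, the partner of TIM23 in the channel, had 128.99, 120.31 and 132.97 FPKM in lon1-1, against 137.86, 132.83 and 146.88 FPKM in wt. The highest lon1-1 library was just above the lowest wt library, so the groups overlapped. The means of 127 ± 6.47 FPKM in lon1-1 and 139 ± 7.12 FPKM in wt (SD, n = 3 each) gave a log2 fold change of -0.13 (SE 0.047, 95% interval -0.23 to -0.02, limma adjusted p = 0.0322). The call lay near the threshold and was lost with some libraries left out. The limma adjusted p was 0.0525 without lon1-1 A, 0.11 without lon1-1 B, 0.0573 without wt A and 0.127 without wt C. In these fits the log2 fold change ran from -0.14 to -0.09. The call was also lost without the filter on low values (0.0573) and without the mean-variance trend (0.0704). It held in the other fits against no change, among them median-ratio scaling (log2 fold change -0.2, limma adjusted p = 0.00279).

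TIM17-1 was listed at 0.07, 0.22 and 0.18 FPKM in lon1-1, against 0.15, 0.31 and 0.16 FPKM in wt. At the estimated depth that is 2, 6 and 5 fragments in lon1-1 and 4, 8 and 4 fragments in wt, and a difference between genotypes could not be seen at this depth. With the filter on low values dropped, its log2 fold change was -0.06 (limma adjusted p = 0.476). TIM17-2 held 99.9% of the pair's FPKM in lon1-1 and 99.8% in wt. Another gene of the family, TIM17-3 (AT5G11690), averaged 2.8 FPKM in lon1-1 and 3.11 FPKM in wt and was not called (log2 fold change -0.11, limma adjusted p = 0.176). No TIM17 gene was therefore called higher.

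**Figure D3:**
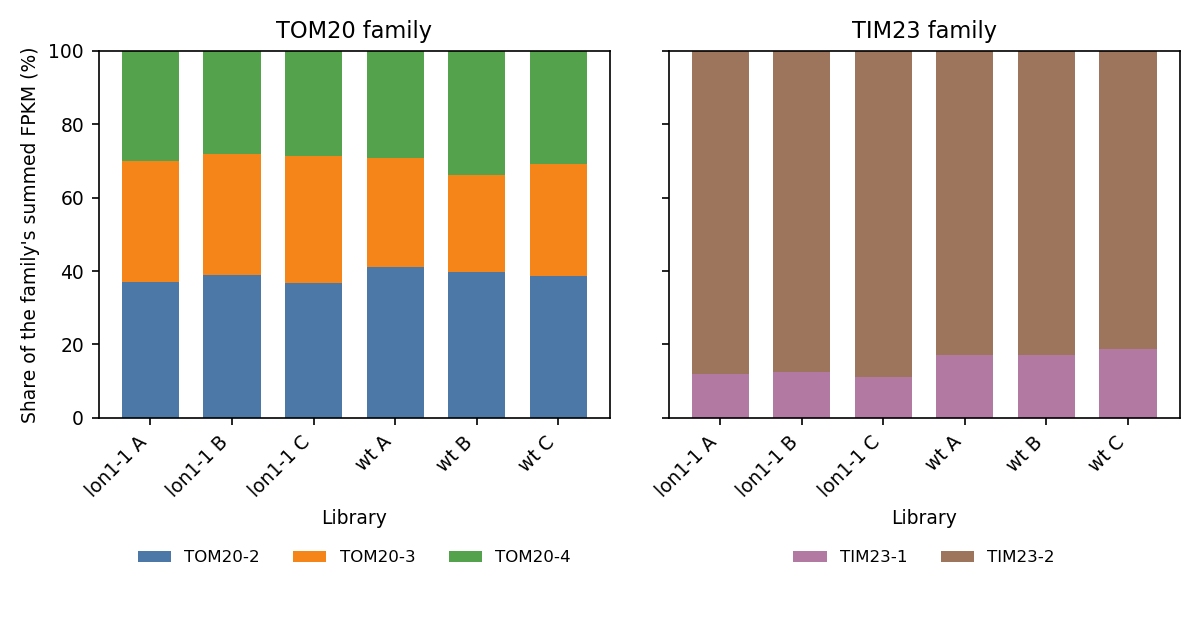
Share of each paralog in the summed FPKM of the TOM20 genes (left) and of the TIM23 pair (right) in each library, in percent, with the lon1-1 libraries left of the wt libraries. TOM20-3 takes 33.0% to 34.4% in lon1-1 and 26.4% to 30.5% in wt, and TIM23-2 takes 87.4% to 89.0% in lon1-1 and 81.2% to 82.8% in wt.

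Subunits that work in 1 complex thus stood in different proportions in the mutant at the transcript level. The ratio of TIM17-2 to TIM23-2 FPKM was 1.68, 1.68 and 1.83 in lon1-1, against 2.94, 2.8 and 3.1 in wt. The ratio of TIM17-2 to TIM50 was 7.38, 6.35 and 7.87 in lon1-1, against 14.8, 14.2 and 17.4 in wt. Both ratios have TIM17-2 on top. The ratio of TIM23-2 to TIM50 differed less, with means of 4.16 in lon1-1 and 5.23 in wt. None of these ratios overlapped between genotypes, and their differences were not tested. How often ratios of other gene pairs separate was not examined. The 4 TOM genes summed to 130, 131 and 135 FPKM in lon1-1, against 78.3, 80.0 and 78.5 FPKM in wt. The 5 TIM genes summed to 234, 221 and 232 FPKM in lon1-1, against 204, 200 and 214 FPKM in wt, a smaller gap because TIM17-2 makes up most of that sum. With TIM17-2 left out, the TIM sum was 105, 101 and 98.8 FPKM in lon1-1, against 66.2, 67.0 and 67.0 FPKM in wt.

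Ordered by mean level, the genes ran TIM17-2, TIM23-2, TOM40, TOM20-2, TOM20-3, TOM20-4, TIM50, TIM23-1 and TIM17-1 in lon1-1, and no neighbours in that order overlapped. In wt the order was TIM17-2, TIM23-2, TOM40, TOM20-2, TOM20-4, TOM20-3, TIM23-1, TIM50 and TIM17-1, where TOM20-4 and TOM20-3 overlapped. TIM50 was above TIM23-1 in lon1-1 and below it in wt, with no overlap in either genotype. In wt the gap was narrow, with TIM50 up to 9.37 FPKM and TIM23-1 from 9.77 FPKM. Replicate spread does not measure bias between genes. The TIM50 row pools added models and TIM23-1 overlaps AT1G17520, so their order is uncertain. In wt, TIM17-2 was more abundant than 96.3% of tested genes and TIM50 than 48.1%.

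A minimum size of change was also tested. With limma's treat against a fold of 1.5, TOM40 (adjusted p = 0.00065), TIM50 (0.00132) and TOM20-3 (0.00149) remained called higher, as did 8.33% of all tested genes. TIM23-2 (0.503), TOM20-2 and TOM20-4 (1.0 each) did not pass, their ratios lying near the fold tested. None of the 8 members tested was called lower by that test, which called 7.69% of all tested genes lower.

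The other subunits of the outer membrane machinery moved in the same direction for the most part. Of 12 further genes, 11 were higher in lon1-1, none was lower and 1 was not called, with a median log2 fold change of 0.51, against 44.7% higher and 32.3% lower over all tested genes. TOM7-2, a small subunit of the TOM core, changed most, with 35.57, 33.62 and 29.92 FPKM in lon1-1, against 6.31, 9.37 and 9.66 FPKM in wt (log2 fold change 1.87, limma adjusted p = 5.8e-07). The other TOM7 gene, AT5G41685, was at 52.6, 53.97 and 52.94 FPKM in lon1-1 and 52.65, 47.3 and 50.2 FPKM in wt. It was not called (log2 fold change 0.09, limma adjusted p = 0.076), and the difference between the responses of the 2 genes was not tested.

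OM64, annotated in RefSeq as TOC64-V, a receptor-like outer membrane protein, averaged 6.93 FPKM in lon1-1 and 2.95 FPKM in wt (log2 fold change 1.01). TOM6, another small subunit, averaged 34.0 FPKM in lon1-1 and 20.2 FPKM in wt (0.72). The TOM22 genes changed less: TOM22-V (also TOM9-2) averaged 31.8 FPKM in lon1-1 and 26.2 FPKM in wt (0.26), and TOM22-I averaged 9.66 FPKM in lon1-1 and 7.73 FPKM in wt (0.29). TOM5 (0.16, limma adjusted p = 0.0219) and TOM20-1 (0.36, limma adjusted p = 0.0138) were called higher although their libraries overlapped between genotypes. The genes AT5G05520 and AT3G11070 of the OMP85 family, which holds the factor that inserts barrel proteins such as TOM40, each had a log2 fold change of 0.51. A metaxin-like gene, AT2G19080, had 0.53.

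Of the remaining inner membrane subunits, 4 were tested, of which 3 were higher, against 44.7% of all tested genes, and TIM17-3 was not called. SD3, the plant TIM21, which helps TIM50 and TIM23 connect to TOM, averaged 8.66 FPKM in lon1-1 and 4.55 FPKM in wt (log2 fold change 0.8, limma adjusted p = 3.64e-07). The TIM22 genes, of the translocase that inserts carriers into the inner membrane, stood at 8.19 FPKM in lon1-1 and 2.45 FPKM in wt for AT3G10110 (1.41, limma adjusted p = 8.49e-09) and at 1.9 FPKM in lon1-1 and 0.69 FPKM in wt for AT1G18320 (0.78, limma adjusted p = 0.000248). These 2 share an identical run of 225 coding bases, so the split of reads between them is uncertain.

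Downstream of the channel, all 10 tested genes of the import motor were higher, with a median log2 fold change of 0.87, against 44.7% higher and a median of 0.08 over all tested genes. The HSP70 of the matrix, mtHsc70-1, averaged 73.7 ± 0.941 FPKM in lon1-1 and 25.4 ± 0.679 FPKM in wt (SD, n = 3 each), a log2 fold change of 1.5 (limma adjusted p = 2.31e-10). Its window held a mitochondrial dysfunction motif match, as did those of TIM50 and of PREP2, a presequence protease gene that was not called (0.07, limma adjusted p = 0.304). MGE1, the nucleotide exchange factor of that HSP70, averaged 19.7 FPKM in lon1-1 and 9.11 FPKM in wt (1.04), and mtHsc70-2 averaged 27.7 FPKM in lon1-1 and 13.3 FPKM in wt (1.01). In the intermembrane space, 5 of 6 genes were higher, beside the same 44.7%, and ERV1 was not called. The small chaperones TIM10 (63.7 FPKM in lon1-1, 29.2 FPKM in wt, log2 fold change 1.1) and TIM13 (17.0 FPKM in lon1-1, 9.52 FPKM in wt, 0.78) changed most there, followed by the oxidative folding factor MIA40 (11.4 FPKM in lon1-1, 6.92 FPKM in wt, 0.64).

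Among the presequence-processing enzymes, 8 of 9 tested genes were higher, against 44.7% of all tested genes, and PREP2 was not called. They included a mitochondrial processing peptidase alpha subunit, AT1G51980, at 131 FPKM in lon1-1 and 82.2 FPKM in wt (log2 fold change 0.66), an inner membrane protease gene, AT3G08980, at 1.96 FPKM in lon1-1 and 0.67 FPKM in wt (0.82), and an aminopeptidase gene, AT1G09300, at 6.43 FPKM in lon1-1 and 3.43 FPKM in wt (0.74). The 4 outer membrane porins were all higher, beside 44.7% of all tested genes, led by VDAC3 at 154 FPKM in lon1-1 and 70.1 FPKM in wt (1.13). Of the other PRAT relatives of TIM17 and TIM23, 3 of 7 tested were higher and 4 were not called, with a median log2 fold change of 0.14. That count is near the 44.7% higher of all tested genes. These relatives were listed by family and were not divided by organelle. Among them, OEP16-3 averaged 109 FPKM in lon1-1 and 81.4 FPKM in wt (0.42).

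The machinery of the plastid gave a comparison from another organelle. Of 22 genes of the TOC and TIC translocons and their partners, 13 were higher, 6 were lower and 3 were not called, with a median log2 fold change of 0.16. Over all tested genes, 44.7% were higher and 32.3% lower, with a median of 0.08. TIC40, a plastid co-chaperone, averaged 23.6 FPKM in lon1-1 and 17.2 FPKM in wt (0.43), and TIC22-4 averaged 12.3 FPKM in lon1-1 and 9.1 FPKM in wt (0.4). The receptor TOC33 averaged 31.8 FPKM in lon1-1 and 40.7 FPKM in wt (-0.35), and TIC62 averaged 1.97 FPKM in lon1-1 and 2.94 FPKM in wt (-0.41). The difference between the lists was not tested.

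**Figure D4:**
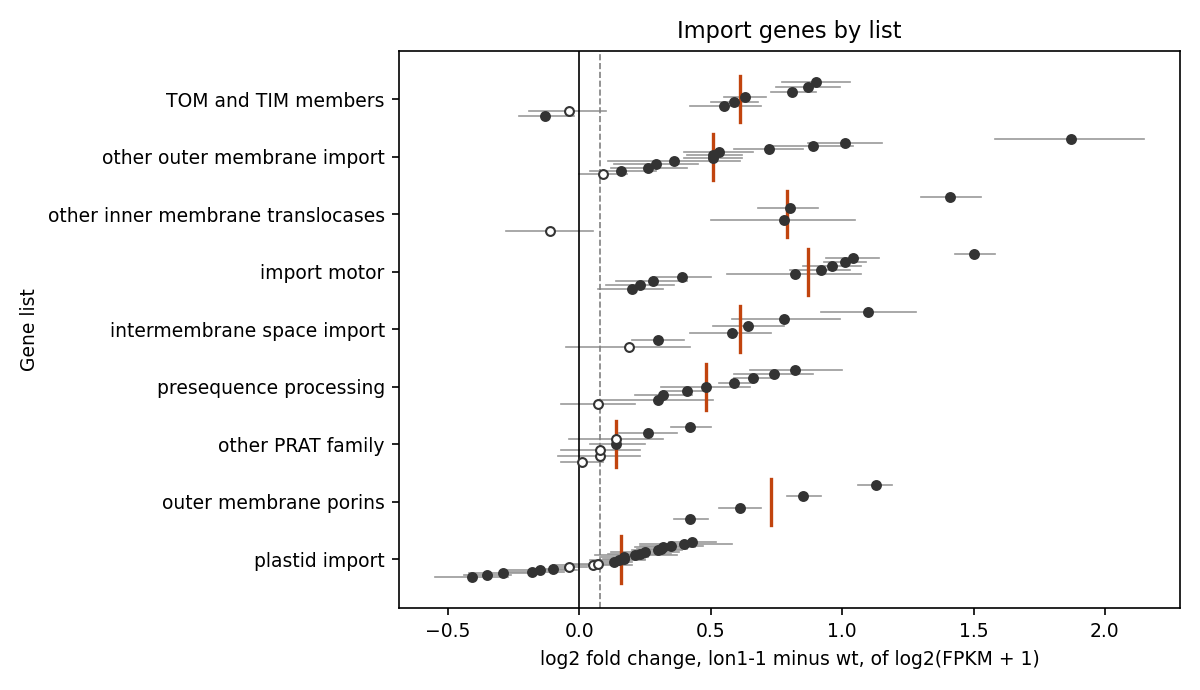
Log2 fold change (lon1-1 minus wt) of each tested gene in the import lists, 1 point per gene with its 95% interval, filled where the limma adjusted p is under 0.05. Red bars are list medians and the dashed line is the median of all tested genes, 0.08. The medians are 0.61 for the 8 tested TOM and TIM genes, 0.87 for the import motor and 0.16 for plastid import.

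Genes whose pattern over the 6 libraries came nearest to TOM40 and TIM50 were sought among 12571 genes with at least 5 FPKM in wt. Likeness was the root mean square difference of log2(FPKM + 1) after each gene's wt mean was taken off. For TOM40 the nearest were AT1G25370 (0.014), an uncharacterised gene, AT3G11964 (0.022), annotated as a ribosomal RNA processing protein, and AT5G62580 (0.03), an ARM repeat protein. For TIM50 they included BGLU44 (0.026), a glucosidase, and HVA22C (0.03). None of these is on the import lists used here, and 472 genes lay within 0.1 of TOM40 and 263 within 0.1 of TIM50.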

How the data were processed

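RNA of 6 dark-grown seedling libraries, 3 of lon1-1 and 3 of wt, was sequenced after removal of ribosomal RNA, in libraries that kept strand, per the labels. The deposited table holds FPKM computed by the authors for each gene. The submitters' processing notes name HISAT2, Bowtie2, RSEM and TAIR10, without versions or roles. The table has 24193 genes, of which 24152 carry NCBI gene IDs, all found in RefSeq's TAIR10.1 annotation, and 41 are models added by the authors.

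The 18308 genes that reached 1 FPKM in 3 or more libraries were compared between genotypes on log2(FPKM + 1) with limma 3.58.1 in R 4.3.3. Its trended empirical Bayes fit had no other term, and p was adjusted by Benjamini-Hochberg over these genes at a threshold of 0.05. Shares of paralogs were compared with two-sided exact permutation tests (SciPy 1.17.1). The alternatives were other pseudocounts, filters, scalings and limma settings, a minimum fold of 1.5, a replicate block and each library left out.

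A depth per library was read from the spacing of low FPKM values, on a grid of 250000 fragments and with 180 bases taken off each transcript length. It put 96.0% to 98.8% of these values within 0.15 of whole fragments, which is no independent check since depth was chosen for this. The whole reads were not taken as counts, so no counting intervals are given.

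Motifs were matched letter by letter in the 250 bases before each gene start of RefSeq's TAIR10.1 sequence. The mitochondrial dysfunction motif has free bases between its fixed ends and allows either of 2 bases at 1 position. Coding sequences of RefSeq were aligned globally, in place of the proteins first planned.

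The 9 genes, the import lists, the marker lists and the tests were chosen with earlier results of these data known. Named were all 9 genes, all other outer and inner membrane subunits, up to 3 called genes of each other list with the largest absolute log2 fold change, some that moved against most of their list, and the 3 genes nearest to TOM40 and to TIM50, of which 1 is not reported here.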

Additional observations from a re-analysis of the deposited data

How the results depend on the processing

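TOM20-2, TOM20-3, TOM20-4, TOM40, TIM23-2 and TIM50 kept their direction and call under all 16 alternatives to the test against no change, with log2 fold changes between 0.48 for TOM20-4 and 0.97 for TIM50. Against a minimum fold of 1.5, 3 of the 8 members tested were called higher and 0 lower. Of all tested genes 2933 were called, 1525 of them higher and 1408 lower. The number of the 9 called lower, 1 for TIM17-2, was 0 without the filter on low values and 0 without the mean-variance trend, and it ran between 0 and 1 when each library was left out. The TIM17-2 log2 fold change lay between -0.2 and -0.09. TIM23-1, never called, ran between -0.07 and 0.02 with 1 library left out, and turned to 0.02 without lon1-1 C and 0.01 without wt C. Median-ratio scaling brought the share of calls that were higher to 51.3%, against 58.0% with FPKM as deposited, and the median of all genes to 0.01 from 0.08. The direction of every share difference held with TOM20-1, TIM17-3 and TIM23-3 added to their families. For TIM17-2 it turned with libraries left out (-0.0152 to 0.0554 percentage points), a share that overlapped between genotypes throughout.

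The replicate letters were not shown to pair the samples: deviations of same-letter libraries correlated at 0.06, 0.017 and -0.032. With the letter as a block, 14046 genes were called, 8145 higher and 5901 lower, against 14104, and the 9 genes gave 6 higher and 1 lower as before (TIM17-2 adjusted p = 0.0066). Each genotype had 3 libraries from 1 growth condition. The table gives FPKM alone, so genes below 1 FPKM, among them TIM17-1 and TIM23-3, could not be compared firmly.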
